A study of Mus musculus with 12 samples.

Results

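The 35 genes described here mark the GABAergic (inhibitory) neurons of the embryonic forebrain, in the cortex and in the ventral regions where these neurons are born. They were taken from a list of names and found by gene symbol among the 51912 genes of the count files. Of the 35, 23 had enough counts in enough libraries to be tested, among 10678 tested genes in all. By what is known of them, 9 are shared by most forebrain GABAergic neurons (Gad1, Gad2, Slc32a1, Dlx1, Dlx2, Dlx5, Dlx6, Dlx6os1 and Sp9) and 8 are genes of migrating cortical interneurons (Lhx6, Sst, Npy, Maf, Cxcr4, Nxph1, Erbb4 and Htr3a). A further 4 belong to progenitors and early neurons of the ganglionic eminences (Nkx2-1, Gsx1, Gsx2 and Lhx8). The other 14 are genes of the striatum, the neighbour of the cortex that forms from the lateral eminence (Six3, Ebf1, Isl1, Ikzf1, Rarb, Rxrg, Zfp503, Meis2, Drd1, Drd2, Penk, Tac1, Adora2a and Ppp1r1b).

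Cortical interneurons are not made in the cortex. They are born in the ganglionic eminences of the ventral forebrain, where Dlx transcription factors set the GABAergic fate and Nkx2-1 and then Lhx6 set the identity of those from the medial eminence, and they migrate into the cortex across the border with the striatum. Striatal projection neurons are born next to them, share the Dlx and Gad genes and switch on a set of their own, such as Ebf1, Ikzf1 and the dopamine receptors, so the shared genes read both cell classes while Lhx6 and Ebf1 each mark mainly one.

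RNA was measured in 12 libraries of dissected mouse cerebral cortex at embryonic day 15.5, 6 from Emx1-Cre Arid1a conditional mutants and 6 from controls, in a series on Arid1a, a chromatin remodelling subunit, and the identity and wiring of cortical neurons. Emx1-Cre acts in progenitors of the dorsal forebrain, from which cortical excitatory neurons and glia derive. GABAergic neurons born in the ventral forebrain would therefore keep Arid1a in a mutant. Some of the genes described here, such as Meis2, are also expressed in cortical cells, and the cells of origin were not measured. The labels give the other group only as control, without its alleles. All 12 carry the same batch label, and they come from 2 litters. Mutants 1 and 2 (litter 1) and mutants 3, 5 and 6 (litter 2) were female and mutant 4 (litter 2) was male. Control 1 (litter 1) and control 6 (litter 2) were female, and controls 2, 3 and 4 (litter 1) and control 5 (litter 2) were male. Litter 1 therefore held no male mutant and 1 female control.

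Levels are CPM, the counts of a gene scaled to a common library total, on sizes scaled by TMM, the trimmed mean of M values. Gene counts per library ran from 643197 in mutant 1 to 3525121 in mutant 3. Arid1a itself, whose whole-gene level includes cells outside the Emx1 lineage, ran from 396 to 525 CPM in mutants (median 443) and from 464 to 575 in controls (median 503), and the groups overlapped (log2 fold change -0.30, SE 0.0958, adjusted p = 0.277 in edgeR's quasi-likelihood test). Markers of cortical excitatory cells were abundant in every library, with a summed level of 1491 to 2104 CPM in mutants and 1946 to 3645 in controls over 11 of 12 listed genes. Neurod1, a gene usually found in embryonic cortex, was listed at 0 in every library, and whether this is a matter of counting or of the identifier is not known. The summed markers of choroid plexus stood at 0.460 to 5.65 CPM except in control 1 (16.3) and control 5 (179). Of septal and hypothalamic markers, whose sum was 8.48 to 58.1 CPM, Otp and Nkx2-4 were listed at 0 in all 12, with the same doubt.

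Striatal genes differed widely from library to library, and they did so within both genotypes. Ebf1, a transcription factor of striatal projection neurons of the direct pathway, stood at 66.8 CPM in the lowest mutant, at a median of 325 and at 947 in the highest. In controls it ran from 41.1 through a median of 146 to 762. Mutant 6 and control 2 were the highest libraries and control 4, control 1 and mutant 4 the lowest, so that a 23.1-fold range separated highest from lowest with both genotypes at both ends. Isl1, needed for direct-pathway neurons, spanned 94.6-fold, from 0.373 CPM in control 4 to 35.3 in control 2, and Ikzf1, which acts in neurons of the indirect pathway, spanned 26.4-fold. The retinoid receptor gene Rxrg spanned 114-fold, and its partner Rarb was at 0 in mutant 4 and at 103 CPM in mutant 1. Six3, which promotes indirect-pathway neurons, was likewise at 0 in mutant 4 and reached 18.6 CPM in mutant 6. The lowest values of Isl1, Ikzf1 and Rxrg rest on 1 count each, so the size of their fold ranges is uncertain. Ebf1 had at least 52 counts in every library.

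Of the genes of mature striatal function, Drd2, Adora2a and Tac1 were highest in the 4 libraries with the highest summed striatal level (mutants 1 and 6 and controls 2 and 3), though not in the same order as Ebf1. The dopamine receptor gene Drd2 reached 38.0 CPM in mutant 1 and 43.1 in control 2, against 0.747 in control 4. Adora2a, the adenosine receptor that accompanies Drd2, spanned 12.2-fold, from 1.49 CPM in control 4 to 18.2 in mutant 1. The neuropeptide genes Penk and Tac1 had 24 and 25 counts over all libraries and did not exceed 6.08 CPM. Penk was highest in control 3 (3.77 CPM, on 10 counts). Mutant 4, low in most striatal genes, and mutant 6 had 2 counts of Penk each. Their CPM values (2.57 and 1.86) differ only through library size. Zfp503, a striatal and cortical zinc finger gene, ran from 0.373 CPM in control 4 to 15.8 in mutant 6.

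Meis2 and Ppp1r1b did not share this range. Meis2, a homeobox gene of the lateral eminence that cortical cells also express, ran from 1259.8 to 2592 CPM, a 2.06-fold range. Ppp1r1b, which encodes DARPP-32 and is also expressed in cortex, was highest in control 2 (25.4 CPM) and next in mutant 4 (23.1), a library with little of the other striatal genes. Because cortical cells also express them, Meis2, Ppp1r1b and Zfp503 were left out of the summed level of the other 11 striatal genes, used below as a striatal index.

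The striatal index put each library on 1 scale. It was 760 CPM in mutant 1, 195 in mutant 2, 520.3 in mutant 3, 82.2 in mutant 4, 260 in mutant 5 and 1147 in mutant 6. In controls 1 to 6 it was 64.8, 1056, 596, 53.4, 167 and 181 CPM. Ebf1 alone made up 65.6 to 86.5% of it, so the index is mainly a reading of Ebf1. The high and low libraries came from both genotypes and both litters. Of the libraries at the ends of the depth range, the shallowest library, mutant 1, ranked 3 from the top, mutant 4 with 794716 counts ranked 10 of 12, and the deepest, mutant 3, ranked 5. In such bulk samples fewer striatal cells and less RNA per cell cannot be told apart, and the same holds for every gene below.

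**Figure D1:**
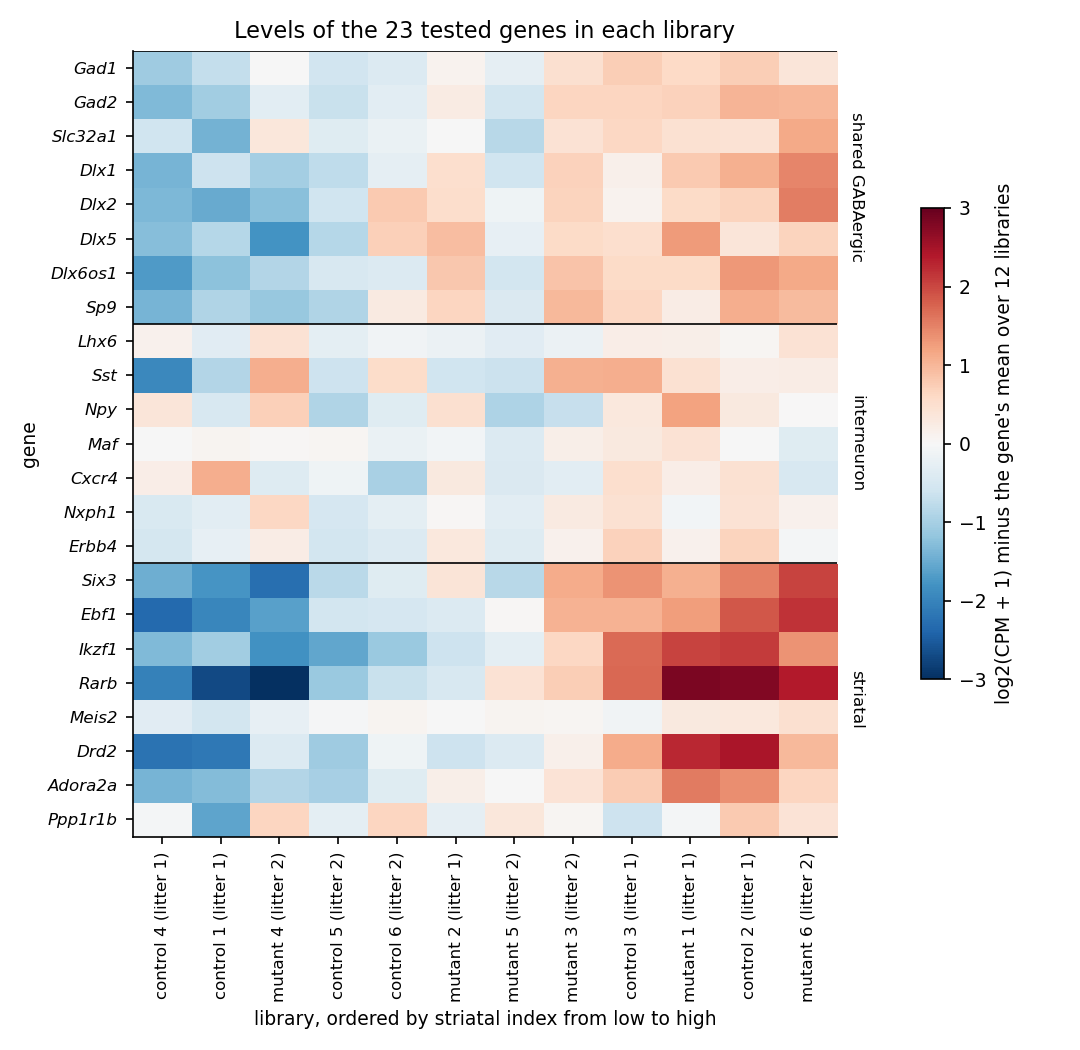
Levels of the 23 tested genes (rows, grouped as shared GABAergic, interneuron and striatal) in the 12 libraries (columns, ordered by striatal index from low to high), as log2(CPM + 1) minus the gene's mean over the libraries, on a colour scale from -3 (blue) to 3 (red). The striatal genes other than Meis2 and Ppp1r1b run from blue to red across the columns, the shared GABAergic genes do so over a smaller range, and Lhx6 and Maf stay near white.

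Genes of the medial eminence were nearly absent except in a few libraries. Nkx2-1, which specifies the medial eminence, had 61 counts in all and stood at 11.3 CPM in control 2, 9.79 in control 3 and 5.58 in mutant 6, with at most 1.67 CPM elsewhere. Lhx8, which directs cholinergic neurons of the basal forebrain, was at 14.8 CPM in control 2, 4.90 in control 3 and 2.79 in mutant 6, and at 0 in 6 libraries. The same 3 libraries ranked first for both genes, and all 3 were among the 4 with the highest striatal index. Gsx1 had 1 count in the whole data set. Gsx2, the progenitor factor of the lateral eminence, had 32 counts and at most 4.56 CPM. None of these 4 genes had enough counts for the test.

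Of the genes shared by GABAergic neurons, Gad2, the GABA-making enzyme of nerve endings, had 106 CPM in the lowest mutant, a median of 215 and 311 in the highest. In controls it ran from 62.0 through a median of 112 to 320.1 CPM. The groups overlapped throughout, and mutant 6 and control 2 were again the highest of their groups and control 4 the lowest of all. Gad1, the other GABA-making enzyme, spanned 3.60-fold over the 12 libraries and Gad2 spanned 5.16-fold. Slc32a1, the vesicular GABA transporter, ran from 4.18 CPM in control 1 to 29.7 in mutant 6. Dlx1, a homeobox gene of migrating and striatal GABAergic neurons, spanned 7.67-fold, Dlx2 spanned 8.99-fold and Dlx5 spanned 11.2-fold. The lowest Dlx5 value, in mutant 4, rests on 2 counts. Sp9, a zinc finger gene of GABAergic precursors, ran from 6.35 CPM in control 4 to 39.6 in control 2. Dlx6 had only 81 counts and was not tested.

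Dlx6os1 (also known as Evf2), a long noncoding RNA read antisense to Dlx6, had the most counts of the shared group, 5708 in all. It ran from 119 to 489 CPM in mutants (median 358) and from 68.0 to 546 in controls (median 163). Control 4 was the lowest library, control 2 the highest, and the range was 8.04-fold. The gene lies at chr6:6820189-6871592 on the minus strand (GRCm38), over the whole of Dlx6 at chr6:6863334-6868568, so where the counting ignored strand, reads of the pair cannot be told apart. Its 2 annotated start regions are shown because it is the one tested gene of the set whose start window holds the letters TAATTA, the core read by many homeodomain proteins, Dlx proteins among them. The sequences are from RefSeq (GRCm38.p6, minus strand, chr6:6869484-6869783 and chr6:6861634-6861933), 250 bases before to 50 after the start, with TAATTA in capitals.
Dlx6os1 start nearer the 5′ end of the gene: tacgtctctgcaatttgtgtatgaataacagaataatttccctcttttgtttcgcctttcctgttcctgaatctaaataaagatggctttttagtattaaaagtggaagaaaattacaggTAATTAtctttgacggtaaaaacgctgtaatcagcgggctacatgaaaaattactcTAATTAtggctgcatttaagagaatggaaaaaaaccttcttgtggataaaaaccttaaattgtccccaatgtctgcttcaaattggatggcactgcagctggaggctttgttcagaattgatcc
Dlx6os1 inner start: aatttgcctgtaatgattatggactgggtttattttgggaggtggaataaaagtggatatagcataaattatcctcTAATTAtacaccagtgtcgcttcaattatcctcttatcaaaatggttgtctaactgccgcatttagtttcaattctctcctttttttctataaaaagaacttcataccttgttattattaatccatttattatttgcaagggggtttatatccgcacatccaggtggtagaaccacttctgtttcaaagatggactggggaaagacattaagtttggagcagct
A start window was in the RefSeq table for 28 of the 35 genes, which gave 35 windows. TAATTA, which reads the same on both strands, was in 3 of these 35 windows (8.57%), both of Dlx6os1 and the 1 of Tac1, and in 5.29% of all 32851 windows. TCCC followed by any 2 bases and GGGA, the core of the motif known for Ebf1 and also the same on both strands, was in 0 of the 35 and in 0.904% of all windows. These matches describe letters in the windows and no binding was measured.

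Of the interneuron genes, Lhx6, Maf, Nxph1 and Erbb4 had narrower ranges than any tested shared gene. The other tested interneuron genes did not: Sst spanned 12.9-fold, Npy 5.32-fold and Cxcr4 4.54-fold, against 3.60-fold for Gad1. The lowest Sst value, in control 4, rests on 4 counts. Lhx6, the transcription factor that marks interneurons of the medial eminence, ran from 46.2 to 79.9 CPM in mutants (median 59.5) and from 46.0 to 67.0 in controls (median 57.8). The groups overlapped almost fully, and its range over the 12 libraries was 1.74-fold, against 5.16-fold for Gad2. Control 4, the lowest library for Gad2 and Ebf1, had 64.6 CPM of Lhx6, more than control 2 with 60.8. Maf, expressed in the same lineage and also in other cells, ran from 25.3 to 45.6 CPM in mutants (median 33.3) and from 29.4 to 41.4 in controls (median 34.4), a 1.80-fold range.

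Nxph1, a secreted neurexin ligand made by migrating interneurons, spanned 2.16-fold, from 449 CPM in control 5 to 971 in mutant 4. Erbb4, the neuregulin receptor that guides them, spanned 2.35-fold, from 1024 CPM in control 5 to 2405 in control 3. Both genes are long, 301 and 1076 kb of genome, and whether intronic reads were counted is not known here. Their levels are therefore not ranked against the others. Cxcr4, the chemokine receptor of migrating interneurons that is also found in Cajal-Retzius and endothelial cells, ran from 8.28 CPM in control 6 to 37.6 in control 1. The neuropeptide genes were low: Sst ran from 1.49 to 19.3 CPM and Npy from 3.43 to 18.2. Htr3a, the serotonin receptor of interneurons from the caudal eminence, had 34 counts and was at 0 in 4 libraries.

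To describe how far each gene moved with striatal RNA, its level was fitted on the striatal index in a model that also held litter, sex and genotype. A slope of 1 would mean that the gene doubled whenever the index doubled. The 8 tested shared genes had slopes from 0.346 (SE 0.049) for Gad1 to 0.565 (SE 0.089) for Sp9. Dlx6os1 was at 0.565 (SE 0.095), Dlx1 at 0.541 (SE 0.066) and Gad2 at 0.479 (SE 0.054). Of the interneuron genes, Lhx6 was at 0.044 (SE 0.047), Maf at 0.026 (SE 0.052), Npy at 0.017 (SE 0.102) and Cxcr4 at -0.028 (SE 0.073). Nxph1 (0.102, SE 0.058) and Erbb4 (0.15, SE 0.054) lay between these and the shared genes. Sst, with 236 counts in all, had a slope of 0.396 (SE 0.185), nearer to the shared genes but with the widest error. With an index of the 10 genes other than Ebf1, added after these values were seen, the shared genes ran from 0.318 to 0.503, Lhx6 was at 0.049 (SE 0.043) and Sst at 0.392 (SE 0.167). The slopes are given without a test, because the genes of the index are themselves among the genes described here and were known to vary.

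**Figure D2:**
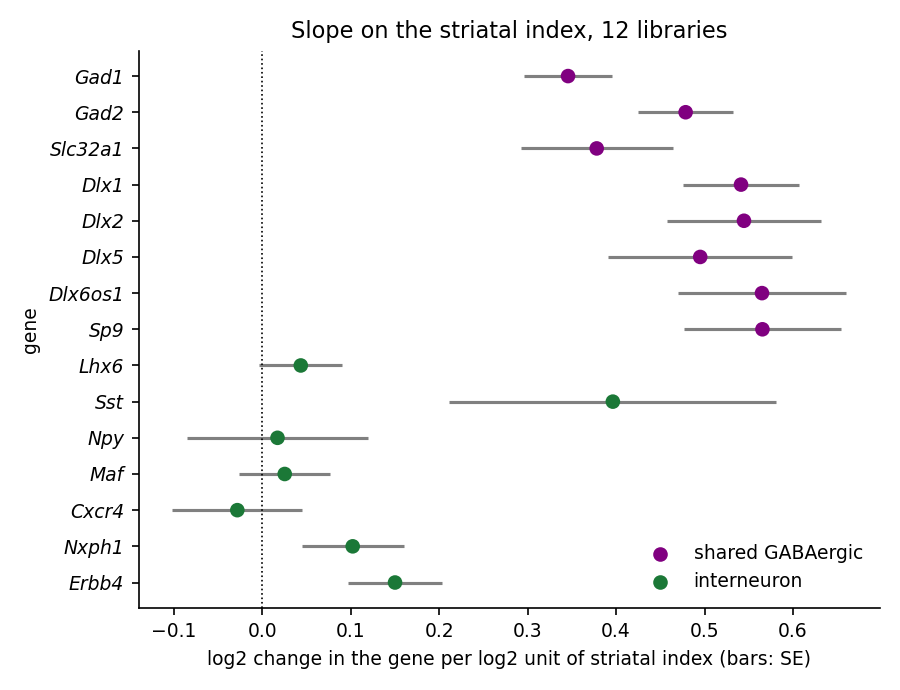
Slope of each shared GABAergic gene (purple) and interneuron gene (green) on the striatal index, in log2 units of the gene per log2 unit of the index (x axis), with bars of 1 SE from the fit to 12 libraries. The shared genes lie between 0.346 and 0.565, and the interneuron genes other than Sst lie between -0.028 and 0.15.

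Correlations of single genes with Ebf1 are given for reference, and because Ebf1 carries most of the index they restate the slopes rather than add to them. On the log2(CPM + 1) scale, Gad2 and Ebf1 correlated with Pearson's r = 0.925 over the 12 libraries (permutation p = 5.0e-05, adjusted p = 0.00015 over 3 relations) and Spearman's rho = 0.916 (permutation p = 0.00011, adjusted p = 0.00033). Without mutant 6 and control 4, the libraries farthest from the median of Ebf1, r was 0.881. It was 0.816 within mutants (exact permutation p = 0.05), 0.986 within controls (exact permutation p = 0.00139), 0.981 within litter 1 (exact permutation p = 0.00139) and 0.841 within litter 2 (exact permutation p = 0.0361). The rank measure was weaker in places, with rho = 0.829 within mutants (exact permutation p = 0.0583) and 0.6 within litter 2 (exact permutation p = 0.242). Within controls and within litter 1 rho was 1 (exact permutation p = 0.00278 each). Lhx6 and Ebf1 gave r = 0.261 (permutation p = 0.407, adjusted p = 0.407) and rho = 0.343 (permutation p = 0.277, adjusted p = 0.277), with r = 0.193 without the same libraries. Within genotypes and litters the r of Lhx6 with Ebf1 lay between 0.0849 and 0.496. Gad2 and Lhx6 gave r = 0.420 (permutation p = 0.174, adjusted p = 0.261) and rho = 0.552 (permutation p = 0.0672, adjusted p = 0.101), with r = 0.438 without mutants 4 and 6.

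The ratio of Gad2 to Lhx6 was also set against Ebf1, a comparison added after these values were seen. Lhx6 spanned 1.74-fold and Gad2 5.16-fold, so the ratio for the most part follows Gad2. Its relation to Ebf1 therefore largely restates that of Gad2 and is no separate test of a difference between the genes. The log2 ratio of Gad2 to Lhx6 rose with Ebf1 (r = 0.916, permutation p = 2.0e-05, adjusted p = 8.0e-05 over 4 relations; rho = 0.937, permutation p = 7.0e-05, adjusted p = 0.00022). Pearson's r was 0.919 without mutant 6 and control 4, 0.802 within mutants (exact permutation p = 0.0542), 0.976 within controls (exact permutation p = 0.00278), 0.935 within litter 1 (exact permutation p = 0.00139) and 0.905 within litter 2 (exact permutation p = 0.0111). The rho of the ratio was 0.771 within mutants (exact permutation p = 0.103) and 0.886 within litter 2 (exact permutation p = 0.0333). Within controls and within litter 1 it was 1 (exact permutation p = 0.00278 each). All tests were two-sided. The genes compared come from the same libraries and were chosen knowing that striatal and GABAergic genes varied together here, so the p-values are no independent support for that pattern.

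**Figure D3:**
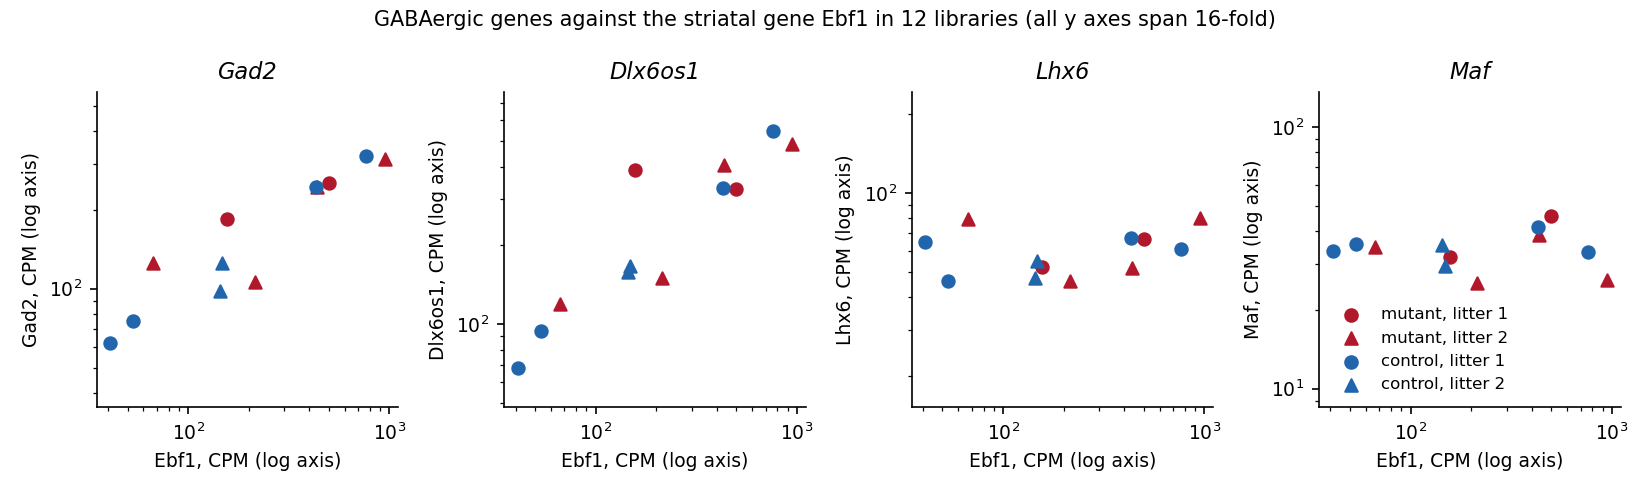
Levels of Gad2, Dlx6os1, Lhx6 and Maf (y axes, CPM, log scale, each spanning 16-fold) against Ebf1 (x axes, CPM, log scale) in 12 libraries, with mutants in red, controls in blue, litter 1 as circles and litter 2 as triangles. Gad2 and Dlx6os1 climb with Ebf1 in both genotypes, and Lhx6 stays between 46.0 and 79.9 CPM and Maf between 25.3 and 45.6.

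Between mutants and controls, 0 of the 23 tested genes were called (edgeR's quasi-likelihood test with terms for litter and sex, Benjamini-Hochberg adjusted p under 0.05), against 0.215% of all genes tested. DESeq2 and limma-voom also called 0. At an unadjusted p under 0.05 there was 1 of the 23, Npy, against 8.78% of all genes. All 35 genes had overlapping levels in the 6 mutants and the 6 controls, while 1.26% of all tested genes did not overlap. Of the 23 log2 fold changes, 22 were positive, and Cxcr4 was the exception. Because these genes moved together from library to library, the shared sign does not count as 22 separate observations.

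The width of the errors followed the striatal range. The median log2 fold change of the 8 shared genes was 0.68, that of the 7 interneuron genes 0.42 and that of the 8 striatal genes 1.13, beside -0.00 over all genes tested. Gad2 had a value of 0.71 (SE 0.654, adjusted p = 0.851) and Dlx6os1 one of 0.77 (SE 0.841, adjusted p = 0.889). Rarb was largest at 1.72, with an SE of 1.62, and Ebf1 stood at 1.11 with an SE of 1.47. For Lhx6 the value was 0.29 with an SE of 0.169 (adjusted p = 0.693), and for Maf 0.07 with an SE of 0.179. Npy ran from 3.43 to 18.2 CPM in mutants (median 9.04) and from 3.47 to 9.71 in controls (median 7.35). It gave 0.90 (SE 0.389, adjusted p = 0.50). Mutants 1, 4 and 2 were above every control, on 12, 10 and 10 counts of Npy against 6 to 26 in controls. These mutants were also the shallowest libraries, with 643197, 794716 and 924066 gene counts. The biological coefficient of variation placed the shared genes at a median percentile of 99.2 among tested genes, the striatal genes at 99.9 and the interneuron genes at 82.7.

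Without control 1, which had the second-lowest striatal index and is the only female control of litter 1, the median of the shared genes was 0.25 and that of the striatal genes 0.24. Without mutant 4 they were 0.98 and 1.97. The median of the interneuron genes was 0.20 without control 5 and 0.10 without the litter and sex terms. Markers of cortical excitatory cells summed to 1782 ± 238 CPM (SD, n = 6) in mutants against 2572 ± 599 CPM (SD, n = 6) in controls, with negative values for 11 of 11 tested genes, 4 of them at an unadjusted p under 0.05 (8.78% of all genes), and 0 called (0.215% of all genes). Their part in the positive values of the GABAergic genes was not tested.

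**Figure D4:**
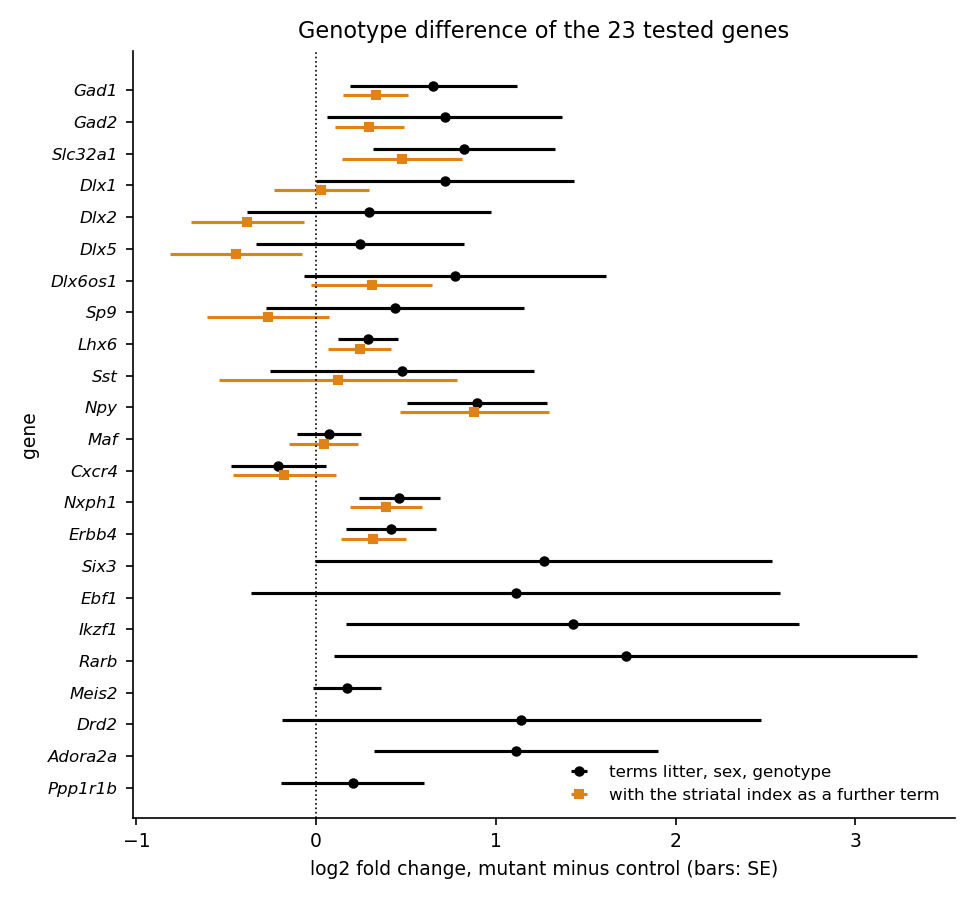
Log2 fold change, mutant minus control (x axis), of the 23 tested genes, with bars of 1 SE. Black points come from the fit with litter and sex as further terms, and orange squares add the striatal index for the 15 shared GABAergic and interneuron genes. The bars of the shared genes shorten in the second fit, and Dlx2, Dlx5 and Sp9 move below 0.

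With the striatal index as a further term, again 0 of the 15 shared and interneuron genes were called, against 0.290% of all genes. The value for Dlx1 went from 0.72 (SE 0.717) to 0.03 (SE 0.265), that for Gad2 from 0.71 to 0.30 (SE 0.194) and that for Gad1 from 0.65 (SE 0.464) to 0.33 (SE 0.181). Dlx2, Dlx5 and Sp9 changed sign, to -0.38 (SE 0.314), -0.44 (SE 0.369) and -0.27 (SE 0.338). The median of the shared genes was 0.16, and that of the interneuron genes 0.24. Lhx6 was at 0.24 (SE 0.173), and Npy at 0.88 (SE 0.414, adjusted p = 0.575), the 1 gene of the 15 with an unadjusted p under 0.05. Among all 10678 genes tested, 413 positive and 499 negative values were under that threshold in the same fit.

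The 12 genes that did not pass the count filter, among them Isl1 and Rxrg with 224 and 212 counts in all, also overlapped between genotypes. With no filter on counts their adjusted p-values lay between 0.511 and 1. Drd1, the dopamine receptor of the direct pathway, was the 1 striatal gene whose mean was lower in mutants than in controls. It had 0 to 2.77 CPM in mutants (median 1.29) and 2.30 to 7.07 in controls (median 3.60), so that only mutant 3 reached the control range, on 70 counts in all (log2 fold change -0.79 with no filter, SE 0.636, adjusted p = 0.905). Zfp503 stood at a median of 6.91 CPM in mutants and 1.96 in controls, with 119 counts.

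Between litters, 1 of the 23 tested genes was called, Cxcr4, against 1.31% of all genes. In litter 1 its level was 19.8 and 21.3 CPM in mutants 1 and 2 and 37.6, 24.0, 24.9 and 19.8 in controls 1 to 4. In litter 2 it was 13.6, 12.8, 12.4 and 12.1 CPM in mutants 3 to 6 and 15.6 and 8.28 in controls 5 and 6. Every library of litter 2 was below every library of litter 1 (log2 difference, litter 2 minus litter 1, -0.97, SE 0.228, adjusted p = 0.0433). The share of all tested genes that separate the litters in this way was not counted, so the separation is description only. The call rested on a small margin: it was lost with limma-voom (-1.02, adjusted p = 0.0542) and when any one of mutants 1, 2, 4, 5 and 6 or controls 1, 2, 3, 5 and 6 was left out (adjusted p from 0.0525 to 0.232). The difference was -0.60 without control 6 and -0.75 without control 1. Reln, which marks Cajal-Retzius cells and some interneurons, differed by 0.22 between litters (SE 0.267), and the summed endothelial and microglial markers were 55.1 to 88.3 CPM over all libraries. Their part in the Cxcr4 difference was not tested.

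At an unadjusted p under 0.05, 2 of the 23 genes differed between litters, Cxcr4 and Npy, against 15.4% of all genes. Npy was lower in litter 2 (-1.02, SE 0.334), a difference that did not pass adjustment (adjusted p = 0.142). The test of a different genotype effect in each litter called 0 of the 23 genes in edgeR, DESeq2 and limma-voom, and over all genes edgeR called 0%. In edgeR 0 of the 23 had an unadjusted p under 0.05, against 357 positive and 419 negative values among all 10678 genes tested. Gad2 illustrates the overlap of the 4 groups. Its mean was 219 CPM in mutants and 176 in controls of litter 1, and 197 in mutants and 112 in controls of litter 2, with control values of litter 1 alone running from 62.0 to 320.1.

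**Figure D5:**
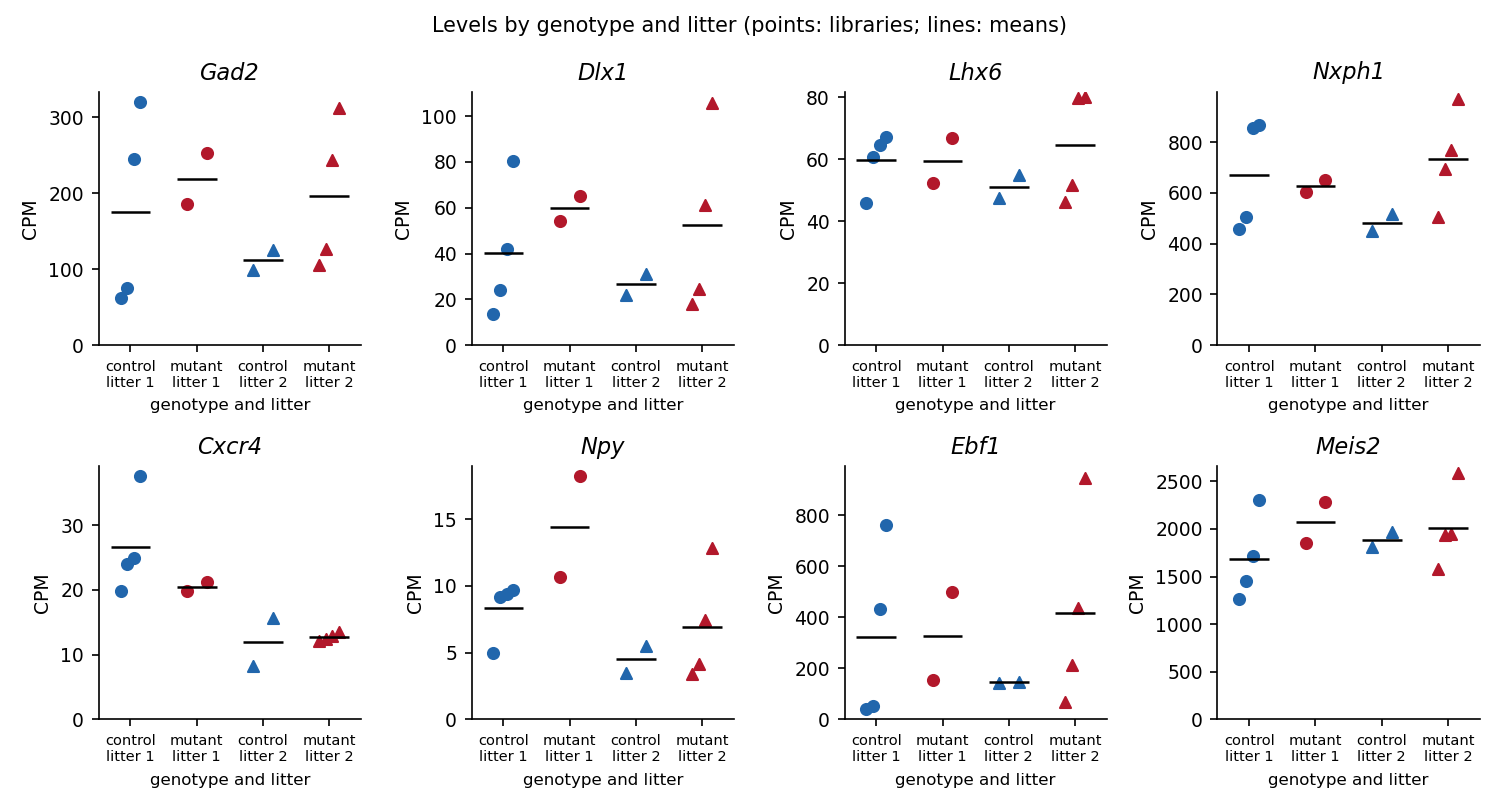
Levels (y axes, CPM from 0) of Gad2, Dlx1, Lhx6, Nxph1, Cxcr4, Npy, Ebf1 and Meis2 by genotype and litter (x axes), with 1 point per library (mutants red, controls blue, litter 1 circles, litter 2 triangles) and lines at group means. Genotypes overlap for all 8 genes, and Cxcr4 is at most 15.6 CPM in litter 2 and at least 19.8 in litter 1.

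Companion lists of related genes were read in the same fits. Of 16 tested among 20 further interneuron genes, 0 were called by genotype (0.215% of all genes were), with 10 values positive and 6 negative, and 0 by litter (1.31% of all genes were). The most abundant were Zeb2, Sox6 and Reln. Zeb2, needed by migrating interneurons and also expressed in cortical excitatory cells, ran from 1155 to 1311 CPM in mutants (median 1211) and from 1425 to 2079 in controls (median 1601). The groups did not overlap, and the log2 fold change was -0.38 (SE 0.114, adjusted p = 0.242), past the threshold with no filter on counts (adjusted p = 0.00618) and without the litter and sex terms (adjusted p = 0.0336) among 23 alternatives. Sox6, which acts downstream of Lhx6 and also in cortical progenitors, gave 0.16 (SE 0.117), and Reln gave -0.52 (SE 0.294).

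Of 9 tested among 15 further striatal genes, 0 were called by genotype and 1, Bcl11b, by litter, beside the same shares of all genes (0.215 and 1.31%). Bcl11b, of striatal and deep-layer cortical neurons, was higher in litter 2 (0.68, SE 0.142, adjusted p = 0.0280), a call lost without any one of mutants 1, 2 and 5 or controls 1, 3, 5 and 6 (adjusted p from 0.0537 to 0.122). Also higher there was the cortical marker Tbr1 (0.74, SE 0.0988, adjusted p = 0.00125), whose call held in all 17 alternatives. Foxp2 and Foxp1, also shared by striatum and cortex, gave genotype values of 0.00 (SE 0.296) and 0.04 (SE 0.240). Of the ventral progenitor genes, 0 were called by genotype or litter, and the hedgehog receptor gene Ptch1 gave 0.29 (SE 0.173) by genotype. Olig2, a progenitor and oligodendrocyte factor too low for the test, stood at 2.57 to 12.1 CPM in mutants and 1.67 to 10.6 in controls.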

How the data were processed

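RNA from 12 cortices was made into libraries by ClickSeq after rRNA depletion, per the labels' protocols. The authors deposited raw counts per Ensembl gene, and the submitters' processing notes name STAR 2.5.2a, the mouse build mm10, HTSeq 0.6.1p1, UMI-tools 0.5.3, cutadapt 1.13, edgeR 3.20.9 and bcl2fastq 2.17. Not given in the sources used here are the order of steps, annotation release, strand setting and counted feature. The 5 closing entries that name no gene (20.7 to 31.6% of a file's total) were left out. Symbols and coordinates are from GENCODE M21 (51633 of 51912 identifiers matched, 279 did not). A second, small entry named Dlx6os1 with 2 counts was not used.

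Genes passing filterByExpr (minimum count 10) were fitted in edgeR 4.0.16 (R 4.3.3) with TMM scaling, genotype, litter and sex as terms (8 residual degrees of freedom), by glmQLFit (robust) and glmQLFTest, and called at a Benjamini-Hochberg adjusted p under 0.05. The SE is the log2 fold change divided by the square root of F. The striatal index is log2 of the summed CPM plus 1 of 11 genes. Correlations used log2(CPM + 1), with 100000 resamples over 12 libraries and exact permutations over 6, in scipy 1.17.1. The edgeR procedure was tested on simulated counts. Alternatives were other size factors, no filter, DESeq2 1.42.0, limma-voom (limma 3.58.1), terms left out, each litter alone, females alone, the index as a term and each library left out, and all but the fit with no filter kept the same genes.

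The members, lists and tests were chosen with earlier results of these data known. All 35 members are named, and of each companion list the called genes, otherwise the 3 most abundant, 1 of which is not reported here. The labels do not say whether libraries share an animal, so p-values measure the spread between these samples. Molecular tags were used, but how far they were collapsed is not given, so counting error may understate the error of 1 library. No pair of libraries was a copy (chi-square per degree of freedom 1.86 to 15.1).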

Additional observations from a re-analysis of the deposited data

Results flagged for a closer look

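Drd2, the dopamine receptor gene of the indirect striatal pathway, had 1 library far from the other 5 in each genotype. Mutant 1 stood at 38.0 CPM, with the other mutants between 4.26 and 14.9, and its gap to the nearest took 0.685 of the range of the group. Control 2 stood at 43.1 CPM, with the other controls between 0.747 and 16.6, a gap of 0.626 of the range. Both libraries were among the 3 with the highest striatal index. Both gaps were above the critical value of Dixon's test for 6 samples. In all, 46 groups were examined (23 genes in each genotype), and chance alone singles out about 1 in 20 groups.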

How the results depend on the processing

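Of the 23 tested genes described here, the number called by genotype was 0 under all 23 alternatives. The interaction count was 0 under all 17. The Pearson correlations kept their side of the threshold with any 1 library left out. Over all genes, the genotype calls (6 higher, 17 lower) became 62 and 199 with no filter, 18 and 77 in DESeq2, 14 and 63 without the sex term, 23 and 118 without litter and sex, 2 and 3 in litter 1, 23 and 41 in litter 2 and 7 and 36 in females, and with 1 library left out ran from 1 and 5 (mutant 2) to 11 and 47 (control 4). Litter calls (74 and 66) became 328 and 265 with no filter and 120 and 144 in DESeq2, and ran from 16 and 11 (without control 5) to 115 and 108 (without control 4). The interaction, with 0, gave 54 and 21 with no filter and 2 and 4 in DESeq2. The litter count of the 23 genes went from 1 to 0 with limma-voom, and leaving out 1 library gave 0 to 1. The median genotype value of the shared genes was 1.69 in litter 1 alone, where control 1 is the only female control, and that of the striatal genes 2.66. That of the interneuron genes was 0.23 without the sex term, 0.10 without litter and sex, 0.25 in females alone and 0.24 with the striatal index, and 0.20 (without control 5) to 0.56 (without control 6) with 1 library left out. Signs turned for genes with small values. Litter 2 alone gave Dlx2 -0.14, Dlx5 -0.45, Cxcr4 0.32 and Ppp1r1b -0.017, and the index as a term gave Dlx2 -0.38, Dlx5 -0.44 and Sp9 -0.27. Maf was at -0.0049 without the litter term and -0.073 without both terms. With 1 library left out, Dlx2 ran from -0.34 to 1.02, Dlx5 from -0.53 to 1.24, Sp9 from -0.10 to 0.85, Maf from -0.015 to 0.12, Cxcr4 from -0.75 to 0.30, Meis2 from -0.039 to 0.40 and Ppp1r1b from -0.11 to 1.17. Cxcr4 by litter ran from -1.14 to -0.60. Apart from Maf, which turned without mutant 1, and Ppp1r1b, which also turned without control 5, these turns came without control 1. The cause was not tested. Genes with under 100 counts in all, such as Nkx2-1, Lhx8, Drd1, Penk and Tac1, were limited by depth.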
